A study of Homo sapiens with 2 samples.

Results

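The cyclins, cyclin-dependent kinases (CDKs) and CDK inhibitor described here were 10 genes, namely the G1 cyclins CCND1 and CCND3, the G1/S cyclins CCNE1 and CCNE2, the S-phase and mitotic cyclins CCNA2, CCNB1 and CCNB2, the kinases CDK1 and CDK2, and the inhibitor CDKN1B. They were taken by name, with every probe set annotated to that gene alone, which gave 22 of the 44988 probe sets with a single gene symbol. The samples were HCT116 cells, an epithelial line from a human colorectal carcinoma. Both cultures were seeded at 100000 cells a well and infected with lentivirus at a multiplicity of infection of 20. After 72 h of infection, RNA of 1 culture with a negative-control shRNA (shNC) and of 1 culture with a single shRNA against RAP1, the construct labelled number 4 (shRAP1), was hybridised to 1 Affymetrix array each. The study asked what RAP1 does in colorectal cancer cells.

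A cyclin binds a CDK and switches the kinase on, and the cell moves through its cycle as successive cyclins are made and destroyed. D-type cyclins with CDK4 or CDK6, and then E-type cyclins with CDK2, phosphorylate the RB protein and release E2F transcription factors, which opens S phase. Cyclin A2 works with CDK2 and CDK1 through S phase and G2, and B-type cyclins with CDK1 drive entry into mitosis. CDKN1B encodes p27, which binds cyclin-CDK complexes and holds them inactive. The amounts of CCNA2, CCNB1, CCNB2 and CDK1 mRNA change through the cycle and are highest in G2 and mitosis, and CCND1 transcription responds to growth factor and Wnt signals.

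With 1 array per group there was no replicate error, and no p-value was computed. Each difference is shRAP1 minus shNC of log2 intensity. A probe set counted as measured where it reached a floor of 78.0, the median linear intensity, on at least 1 array, and a gene was represented by its brightest measured probe set, which gave 10437 genes. The differences of these genes had a median of 0.010 and an SD of 0.16, with the central 95% between −0.29 and 0.32. TERF2IP, which encodes the telomere protein RAP1, stood at 47.6% of its control intensity on its 1 measured probe set, while RAP1A and RAP1B, the GTPase genes of that name, stood at 85.5% to 93.3% on 5. Of 7 colorectal epithelial markers 6 were measured and VIL1 was below the floor, and the 7 together had a summed intensity of 30955 in shNC and 31728 in shRAP1. None of the 4 leukocyte and 3 fibroblast markers was measured, and of 2 endothelial markers only VWF was.

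All 10 genes were measured, through 20 of their 22 probe sets. By gene, 9 of 10 were lower in shRAP1 and 1 was higher, where 46.8% of all measured genes were lower. Because the members were chosen with earlier results of these data known, the counts given here describe the list and are not a test. By probe set, 19 of 20 were lower, against 50.6% of all measured probe sets, and 5 of 20 were lower by 1.2-fold or more, against 4.91%. Several of those 5 were of CCND1, and the others were of CCND3 and CCNA2, so they are not independent. The median difference of the 10 genes was −0.13, beside 0.010 over all genes, and the differences ran from −0.33 to 0.019. No gene reached a 2-fold difference, a size that 0.0383% of all genes reached in either direction. At 1.2-fold, the size counted here, 2 of 10 were lower (CCND1 and CCND3) and 0 were higher, against 3.58% of all genes lower and 4.96% higher by that size. Just inside it lay CCND3, at 1.204-fold, and just outside it CCNA2, at 1.19-fold. At 1.1-fold, 5 of 10 were lower against 14.4% of all genes, and at 1.5-fold 0 of 10 against 0.172%. In a culture of cycling cells, fewer cells in a phase and less mRNA per cell cannot be told apart.

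**Figure D1:**
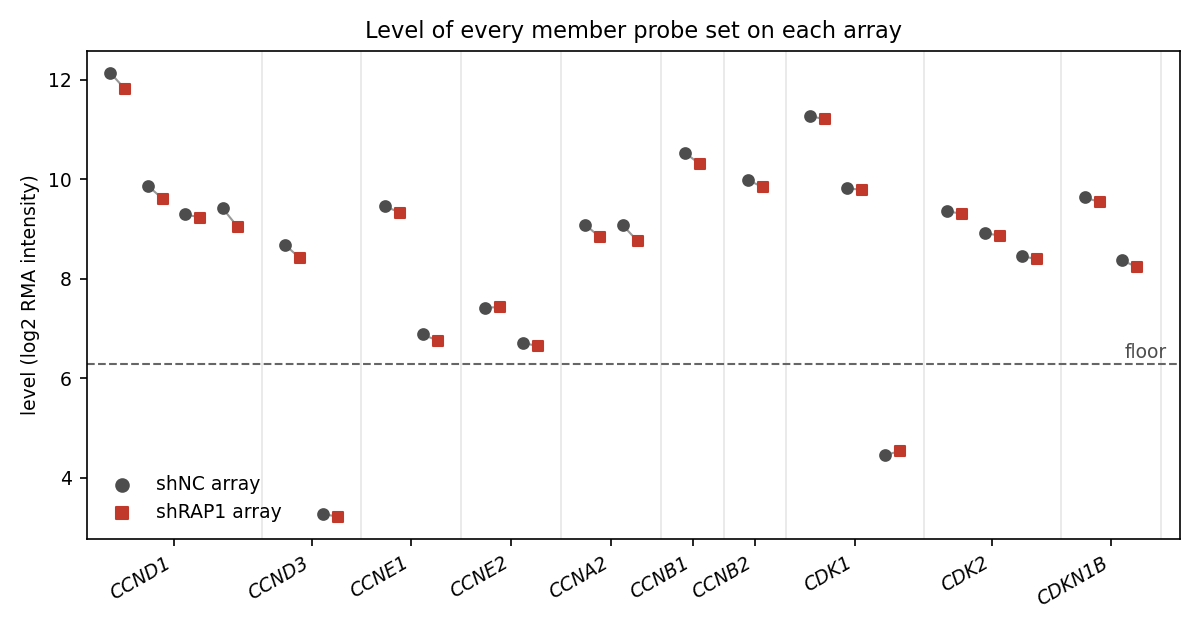
Level of each of the 22 probe sets, in log2 RMA intensity, on the shNC array (grey circles) and the shRAP1 array (red squares), grouped by gene, with a line joining the 2 values of a probe set. Of the 20 probe sets above the dashed floor at 6.29, 19 slope down from shNC to shRAP1, and the 2 below it belong to CCND3 and CDK1.

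On the brightest probe sets, the D-type cyclins stood lowest of the 10 genes, while with the median of a gene's probe sets CCNA2, at −0.29, lay below CCND3. CCND1, which carries mitogenic signals into the cell cycle, had an intensity of 4493 in shNC and 3568 in shRAP1 on its brightest probe set, a difference of −0.33 that left 79.4% of the control. Its other probe sets read 933 and 777 (−0.26), 681 and 525 (−0.37), and 628 and 599 (−0.067). All 4 were thus lower in shRAP1, and 3 of them differed by 1.2-fold or more, while the remaining one stood at 95.4% of the control. Genes as bright as CCND1 spread little, and its difference was 3.15 times the SD of the 500 genes nearest in level. Of all measured genes, 1.72% were lower than CCND1. CCND3, the D-type cyclin best known from lymphoid cells but present in many tissues, read 409 in shNC and 340 in shRAP1, a difference of −0.27 or 1.70 times the SD of genes of like level. That value rests on 1 probe set, since the other CCND3 probe set read 9.67 and 9.33, far below the floor.

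Of the E-type cyclins, CCNE1 was slightly lower and CCNE2 stood close to the control. CCNE1, which binds CDK2 at the start of S phase, read 701 in shNC and 642 in shRAP1 on its brighter probe set and 118 and 108 on the dimmer, with differences of −0.13 and −0.12. These sizes were within the spread of genes of like level, at 0.86 times their SD for the brighter. CCNE2, its close relative, read 171 in shNC and 173 in shRAP1 on one probe set and 105 and 100 on the other. CCNE2 was the single gene of the 10 with a positive value, 0.019, and its other probe set was at −0.070, so its probe sets had opposite signs and both were near 0. With a lowess trend of difference on level subtracted, CCNE2 turned to −0.023. It was 0.12 times the SD of its neighbours in level.

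The S-phase and mitotic cyclins were all lower, and on the brightest probe sets by less than CCND1. With the median of a gene's probe sets, CCNA2 was at −0.29 and CCND1 at −0.30. CCNA2, the cyclin that spans S phase and G2, read 543 in shNC and 456 in shRAP1 on one probe set and 541 and 432 on the other, with differences of −0.25 and −0.32. Both probe sets were lower, at 83.9% and 79.9% of the control, and the first difference was 1.73 times the SD of genes of like level. CCNB1, the main partner of CDK1 at mitotic entry, read 1477 and 1261, a difference of −0.23 or 85.4% of the control, on its 1 probe set. CCNB2, the Golgi-associated B-type cyclin, read 1014 and 918, a difference of −0.14 or 90.5% of the control, also on 1 probe set. CCNB1 was 1.56 and CCNB2 1.01 times the SD of genes of like level. The sizes of CCND1, CCND3 and CCNA2 also exceeded that SD. The share of all genes that did so was not computed, so this does not set the members apart.

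The kinases and the inhibitor stood slightly below the control. CDK1, the kinase of mitosis, read 2466 in shNC and 2356 in shRAP1 on its brightest probe set and 902 and 881 on the second, with differences of −0.066 and −0.034. Its remaining probe set was below the floor, at 21.9 and 23.2. CDK2, the kinase of S phase, read 654 and 632, 483 and 467, and 351 and 335 on its 3 probe sets, with differences of −0.049, −0.049 and −0.066. CDK1 and CDK2 thus stood at 95.5% to 97.7% of the control on all 5 measured probe sets, within 0.56 times the SD of genes of like level on the brightest of each. CDKN1B read 794 and 743 on one probe set and 330 and 301 on the other, with differences of −0.095 and −0.14, so the inhibitor was lower on both probe sets.

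**Figure D2:**
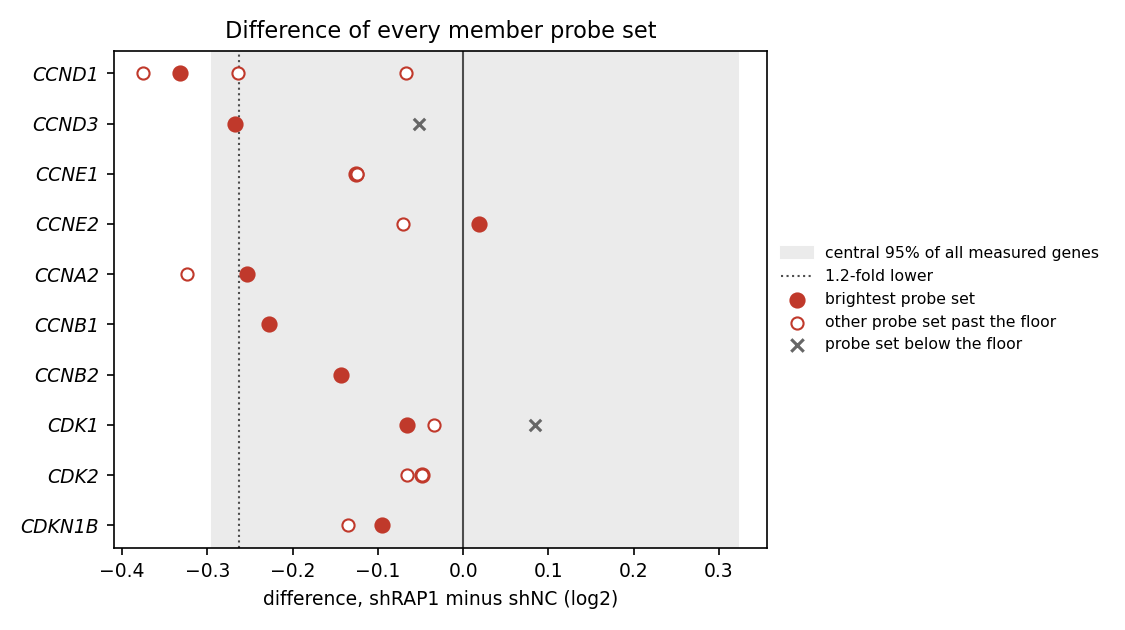
Difference of each probe set, shRAP1 minus shNC on the log2 scale, by gene. Filled circles are the brightest probe set, open circles the other measured ones and crosses those below the floor, the grey band is the central 95% of all measured genes, and the dotted line marks 1.2-fold lower. Above the floor, the D-type, A-type and B-type cyclins lie between −0.37 and −0.067, and CDK1 and CDK2 between −0.066 and −0.034.

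The measured differences among the members can be read as changes in their ratios on the same array. CCNB1 against its kinase CDK1 was lower by a further −0.16, CCNA2 against CDK1 by −0.19 and CCNB2 against CDK1 by −0.078. CCNA2 against CDK2 differed by −0.20, whereas CCNE1 against CDK2 differed by −0.076 and CCNE2 against CDK2 by 0.068. CCND1 against CDKN1B differed by −0.24. Each ratio rests on the brightest probe set of each gene and on 1 array per group. Those of CCNB2, CCNE1 and CCNE2 were smaller in size than 0.13, the median gap between measured probe sets of 1 gene. On another probe set CCND1 was at −0.067, above both CDKN1B probe sets, at −0.095 and −0.14.

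How far probe sets of 1 gene agreed gives a scale for these sizes, although it holds no variation between cultures. Over the 6135 genes with 2 or more measured probe sets, the gap from the lowest to the highest difference had a median of 0.13 and a 90th percentile of 0.32. For CCND1, with 4 probe sets, the gap was 0.31. Among the other members the gap was widest for CCNE2, at 0.089, then 0.071 for CCNA2, 0.040 for CDKN1B, 0.032 for CDK1, 0.017 for CDK2 and 0.0011 for CCNE1. In 6 of the 7 members with 2 or more measured probe sets all were lower, and CCNE2 was the exception. Of all such genes, 60.2% had all probe sets on one side of 0, a share that counts both directions. The share with all probe sets lower was not computed. Probe sets of a gene are not independent: 2 of the 3 CDK2 probe sets had the same difference within 1e-05, as did 362 of 25514 such pairs over all genes.

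**Figure D3:**
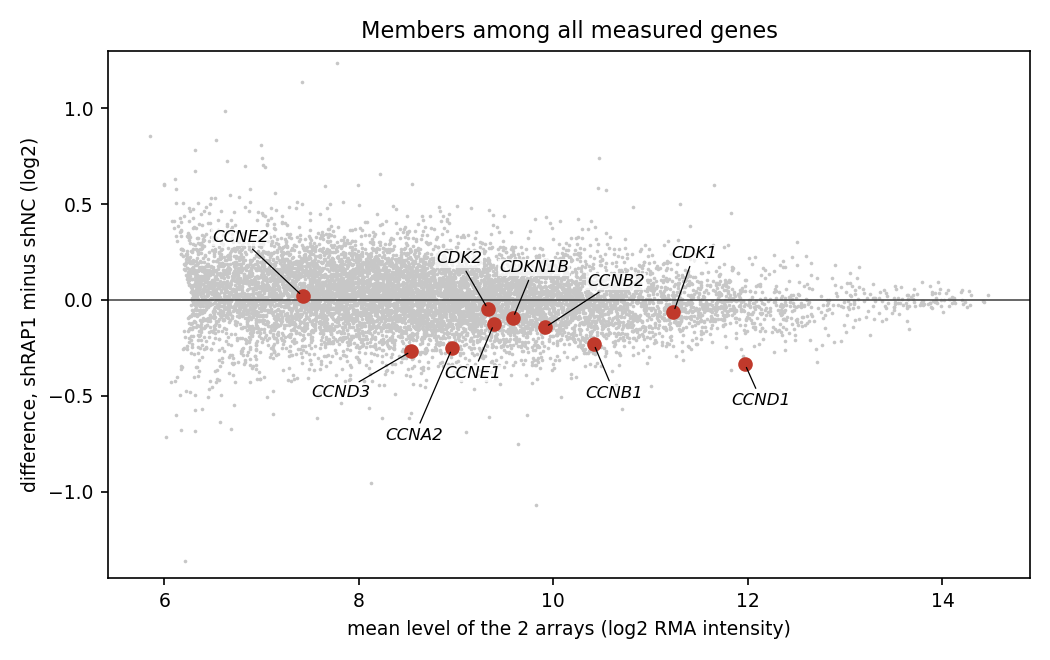
Difference, shRAP1 minus shNC in log2, against the mean level of the 2 arrays for all 10437 measured genes (grey points) and the 10 members (red). CCND1 lies at the lower edge of genes of its brightness, and CDK1, CDK2, CDKN1B and CCNE2 lie inside the cloud.

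The upstream sequences of CCNA2, CCNB1, CCNB2 and CDK1 are shown because these genes share cell cycle elements. The elements are the CCAAT box, bound by NF-Y, and the cell cycle genes homology region (CHR), bound by the MuvB complex, which represses these genes in quiescent cells and, with MYBL2 and FOXM1, activates them in G2. RefSeq promoters of GRCh38.p14 matched 7 of the 10 members, and CCND1, CCNE2 and CDK2 had no match. Each sequence is the 250 bases before the annotated start, 5′ to 3′ on the gene's strand. Capitals mark matches on either strand to CCAAT, to the CHR words TTTGAA or TTTAAA or CTTGAA, or to the E2F words TTTGGCGC or TTTCCCGC or TTTGCCGC or TTTCGCGC. For CDK1, which has 2 annotated starts in the table, the downstream one is shown.
CCNA2 (chr4:121823884-121824133, minus strand): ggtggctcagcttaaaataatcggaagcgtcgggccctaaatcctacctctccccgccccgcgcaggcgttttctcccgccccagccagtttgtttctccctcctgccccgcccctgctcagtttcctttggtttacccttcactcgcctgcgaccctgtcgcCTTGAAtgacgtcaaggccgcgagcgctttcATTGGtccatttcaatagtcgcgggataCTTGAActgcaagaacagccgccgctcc
CCNB1 (chr5:69166900-69167149, plus strand): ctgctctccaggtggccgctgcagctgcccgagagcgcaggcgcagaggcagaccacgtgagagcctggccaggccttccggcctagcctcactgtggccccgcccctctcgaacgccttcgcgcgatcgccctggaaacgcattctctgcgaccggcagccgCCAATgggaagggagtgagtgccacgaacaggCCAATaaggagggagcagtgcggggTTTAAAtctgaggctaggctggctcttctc
CCNB2 (chr15:59104896-59105145, plus strand): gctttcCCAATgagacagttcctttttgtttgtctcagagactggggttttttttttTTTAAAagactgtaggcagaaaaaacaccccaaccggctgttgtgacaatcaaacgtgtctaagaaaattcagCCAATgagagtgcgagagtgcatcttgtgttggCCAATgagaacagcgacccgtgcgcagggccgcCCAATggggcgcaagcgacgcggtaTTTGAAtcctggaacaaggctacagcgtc
CDK1 (chr10:60778228-60778477, plus strand): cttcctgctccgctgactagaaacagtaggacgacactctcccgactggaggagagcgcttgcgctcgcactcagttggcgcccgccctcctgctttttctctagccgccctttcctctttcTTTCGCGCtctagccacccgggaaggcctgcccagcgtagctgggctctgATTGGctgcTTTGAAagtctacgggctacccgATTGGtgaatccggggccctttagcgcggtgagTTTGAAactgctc

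CCNA2 held 1 CCAAT box, 56 bases before the start, and CHR matches at 87 and 28 bases. CCNB1 held CCAAT boxes at 87 and 55 bases and a CHR match at 30. CCNB2 held 4 CCAAT boxes, of which those at 120, 87 and 54 bases lie about evenly spaced above a CHR match at 29 bases, and a second CHR match at 193. CDK1 held CCAAT boxes at 78 and 46 bases, CHR matches at 69 and 13, and the single E2F match among the 10 promoter windows of the members, at 128. A CCAAT box upstream of a CHR match near the start was thus present in CCNA2, CCNB1, CCNB2 and CDK1. CDKN1B had this arrangement too, with CCAAT boxes at 174 and 50 bases and a CHR match at 30. In that order, the differences of these genes were −0.25, −0.23, −0.14, −0.066 and −0.095. Whether the elements bear on them was not tested. Of all 35116 promoter windows of the same length, 32.0% held a CCAAT box, 28.2% a CHR word, 9.91% both and 2.79% an E2F word. The share with both counts any order and position, not the arrangement named above. CDKN1B held 2 CCAAT boxes and 1 CHR match, CCNE1 held 1 CHR match, and 2 of the 3 CCND3 windows held 1 CCAAT box. A match describes letters in the window and was not tested for binding.

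Of the 99 other cell cycle genes in 8 lists, 92 were measured, and their median was −0.021. In shRAP1 48 of them (52.2%) were lower and 44 higher, where 46.8% of all measured genes were lower. At 1.2-fold, 4 of the 92 were lower and 2 higher, against 3.58% of all genes lower and 4.96% higher by that size. The counts of each list below can be set beside the same shares. Of 7 other cell cycle cyclins and CDKs 3 were measured, 2 of them lower and 1 higher, and the median was −0.20, below that of the members. CDK4, the kinase partner of D-type cyclins, was at −0.20 with 4 probe sets between −0.20 and −0.14, reading 3038 in shNC and 2646 in shRAP1 on the brightest. CCNF, an F-box protein that directs ubiquitination, was at −0.20, and CDK6, the other D-type cyclin kinase, at 0.16 with 3 probe sets between −0.022 and 0.18. CCND2, the remaining D-type cyclin, was below the floor.

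Of 16 CDK-activating and transcription cyclins and CDKs, 8 were lower and 8 higher, and the median was 0.0056, which turned negative under 4 of the 6 other settings. MNAT1, the assembly factor of the CDK-activating kinase, was at −0.38 (575 in shNC and 443 in shRAP1) on 1 probe set. CCNC, the cyclin of the Mediator kinase module, was at −0.36 with 3 probe sets between −0.36 and −0.33. CCNT1, the cyclin of the elongation factor P-TEFb, was at 0.26 on 1 probe set. Within the CDK-activating kinase, which phosphorylates CDK1 and CDK2, the members named after their values were seen were CCNH at −0.25 and CDK7 at 0.039.

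Of 6 measured other CDK inhibitors 3 were lower and 3 higher, and the median was −0.0037, which turned positive under 2 of the 6 other settings. CDKN1C, the p57 inhibitor, was at 0.33 (474 in shNC and 597 in shRAP1) with 3 probe sets between 0.25 and 0.37. CDKN1A, the p21 inhibitor and p53 target, was at −0.14, and CDKN2B at −0.19. The CIP/KIP inhibitors CDKN1A, CDKN1B and CDKN1C therefore did not have a common direction. Of 10 genes that set the activity of CDK1, 6 were lower and 4 higher, and the median was −0.064. WEE1, the kinase that places the inhibitory phosphate on CDK1, was at 0.27 on 1 probe set, reading 1159 and 1395. CDC25A, a phosphatase that removes it, was at −0.14, and AURKA, a mitotic kinase, at −0.14.

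Of 25 genes of the SCF and APC/C ubiquitin ligases, which mark cyclins and p27 for destruction, 17 were lower and 8 higher, the median was −0.042 and none was past 1.2-fold. Among those whose probe sets shared a sign, the APC/C subunits ANAPC15, CDC26 and ANAPC10 differed most, at −0.22, −0.18 and −0.14. The APC/C coactivator FZR1 was at 0.24, with 3 probe sets between −0.11 and 0.28. In the RB and E2F family 4 of 12 were lower and 8 higher, and the median was 0.0060. RB1, the pocket protein that D-type cyclin kinases phosphorylate, was at −0.36 on its brighter probe set (256 in shNC and 200 in shRAP1) and at −0.18 on the dimmer. The repressors E2F8 and E2F7 were at −0.16 and 0.17. In the list of MuvB, MYBL2, FOXM1 and NF-Y, which read the elements shown above, 6 of 10 were lower and 4 higher, and the median was −0.051. FOXM1 was at −0.30 with 3 probe sets between −0.30 and −0.14, the MuvB subunit LIN9 at −0.25, and NFYB at −0.11 with its other probe set at −0.44.

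Of 10 measured genes upstream of CCND1 and CDKN1B, 2 were lower and 8 higher, and the median was 0.061. The forkhead factors FOXO1 and FOXO3, which activate CDKN1B transcription, were at 0.26 and 0.22, and the kinase AKT1, which restrains them, at 0.23. For FOXO1 both probe sets were higher (0.26 and 0.33), and for FOXO3 the 3 probe sets lay between 0.0083 and 0.22. CDKN1B itself stood at −0.095, as given above. With 2 arrays, no likeness of pattern across samples could be measured, so no gene is named for it.

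**Figure D4:**
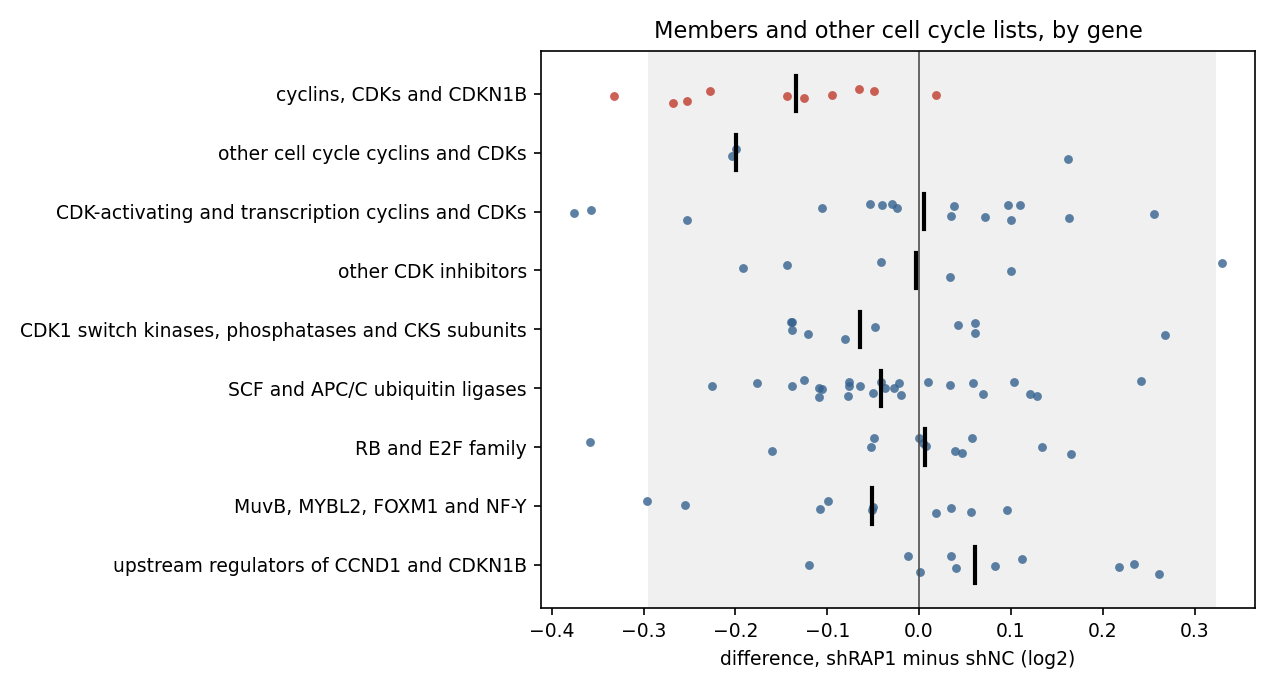
Difference of each measured gene, shRAP1 minus shNC in log2, for the 10 members (red) and 8 other cell cycle lists (blue). Points are spread vertically for legibility, black bars are list medians and the grey band is the central 95% of all genes. The members' median is −0.13, that of the 3 measured other cyclins and CDKs is −0.20, and those of the other 7 lists lie between −0.064 and 0.061.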

How the data were processed

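RNA of 2 HCT116 cultures, 1 array each, was labelled by in vitro transcription primed at the 3′ end, per the labels' protocols. The deposited values are probe set intensities on a linear scale, which was read from the values. RMA is the tool named in the submitters' processing notes, and its version is not stated in those notes, nor is the set of arrays it was run on. RMA equalises the distributions of the arrays, so differences are relative to other genes. Here log2 was taken with no pseudocount. Gene names came from the platform annotation, and for all 122 genes looked up the symbol matched RefSeq. Of the probe sets, 102 were controls, 1832 carried several symbols and 2473 none, and these were not used. Medians were 77.0 in shNC and 78.9 in shRAP1. The number of arrays limits the precision. The labels call each sample biological replicate 1 of its group.

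The text names all 10 members, the possible targets, and up to 3 genes per list with the largest size among those whose measured probe sets share a sign. CDK6, CCND2, CCNH, CDK7, FZR1, VIL1 and VWF were named after their values were seen. The members and lists were chosen with earlier results of these data known. Alternatives changed the probe set rule, floor, probe sets admitted, centring, pseudocount and size counted. The calculation was tested on simulated data. Python 3.11.15, numpy 2.4.6, pandas 2.3.3, statsmodels 0.14.6 and matplotlib 3.10.9 were used.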

Additional observations from a re-analysis of the deposited data

How the results depend on the processing

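No paired analysis was possible because each group held 1 array, and for the same reason no replicate could be left out. Of 59 recomputed member differences 56 were negative, but these are not 59 separate checks. Moving the floor did not change which probe set was brightest for any measured member. The values with no floor and with a higher floor therefore equalled the main ones, and CCNE2 was not measured with the higher floor. Leaving out the less specific probe sets named below changed only CCNE1, CDK1 and CDKN1B. The sign changed for CCNE2, to −0.026 when a gene was the median of its probe sets and to −0.023 with a lowess trend subtracted. CCND1 stayed between −0.33 and −0.30, CCNA2 between −0.29 and −0.23, and the members' median between −0.14 and −0.13. The number of members past 1.2-fold was 2, and it was 3 when a gene was the median of its probe sets, where CCNA2 joined, 1 with 50 added before log2, 5 at 1.1-fold, 0 at 1.5-fold and 0 at 2-fold. The median of the CDK-activating and transcription list turned to −0.017 when a gene was the median of its probe sets, −0.035 with a higher floor (the 75th percentile), −0.040 without the less specific _x_at and _s_at probe sets, and −0.018 with the lowess trend subtracted. That of the other CDK inhibitors turned to 0.034 without those probe sets and 0.013 with the lowess trend subtracted. The median of the 3 measured other cyclins and CDKs moved from −0.20 to −0.072 with no floor and to −0.018 with the higher floor, where the genes measured differ, and to −0.11 without the less specific probe sets. The median of the CDK1 switch list moved from −0.064 to −0.0026 with the higher floor. When a gene was the median of its probe sets, that of the MuvB list moved from −0.051 to −0.0089. Over the 6 settings, the median of the upstream regulators ran from 0.040 to 0.12 and that of the RB and E2F family from 0.0039 to 0.027. The cause of the other changes was not tested.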
